A study of Mus musculus with 9 samples.

Results

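The genes described here encode the machinery of oxidative phosphorylation, and they were picked by gene name alone: every symbol in the count table beginning with Ndufa, Ndufb, Ndufc, Ndufs, Ndufv, Uqcr, Cox4, Cox5, Cox6, Cox7, Cox8 or Atp5, together with the 4 Sdh genes, and without symbols containing "-ps". The rule took 93 of the 39179 genes in the table. Of these, 83 were grouped as subunits: 36 of complex I, 4 of complex II, 8 of complex III, 19 of complex IV and 16 of the ATP synthase. The other 10 are assembly factors, a relative of Ndufa4 and Atp5l2, which GENCODE M21 names Atp5l2-ps and lists as a processed pseudogene. The 83 include Cox7a2l, a supercomplex factor placed with complex IV, and Atp5s, which RefSeq lists as Dmac2l, placed with the ATP synthase. A filter on low counts kept 86 members of 13819 genes for testing.

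RNA was sequenced from 3 dendritic cell (DC) subsets sorted from the spleens of untreated C57BL/6J mice with no transgene: CD8+ conventional DC (cDC1), CD8- conventional DC (cDC2) and plasmacytoid DC (pDC). Each subset had 3 libraries, and each library was 1 pool of 15 to 17 mice, so variation between single animals was averaged within a library. The labels state no age. The sort gates were CD11c high CD317 low for both conventional subsets, divided by CD8 and CD11b, and CD11c intermediate CD317 high for pDC.

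Oxidative phosphorylation passes electrons from NADH and succinate along complexes I to IV of the inner mitochondrial membrane to oxygen, pumps protons at complexes I, III and IV, and lets the protons return through the ATP synthase to make ATP. Most subunits come from nuclear genes and are imported, while the mitochondrial genome encodes a few hydrophobic subunits at the heart of complexes I, III, IV and the ATP synthase. Several complex IV subunits exist as alternative forms encoded by separate genes, with one form in most tissues and another restricted to heart, skeletal muscle, lung or testis.

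One such pair carried the largest difference among the members: Cox6a1, the widely used form of subunit VIa, and Cox6a2, its heart and skeletal muscle form. To show that reads could be assigned to one gene or the other, the same stretch of both coding sequences is given from the GENCODE M21 transcripts, 5′ to 3′, with the bases that differ in capitals. It covers coding bases 205 to 324 of Cox6a1 and 160 to 279 of Cox6a2.
Cox6a1: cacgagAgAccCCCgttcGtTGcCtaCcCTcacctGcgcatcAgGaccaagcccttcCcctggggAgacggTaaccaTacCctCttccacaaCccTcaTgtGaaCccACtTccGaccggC
Cox6a2: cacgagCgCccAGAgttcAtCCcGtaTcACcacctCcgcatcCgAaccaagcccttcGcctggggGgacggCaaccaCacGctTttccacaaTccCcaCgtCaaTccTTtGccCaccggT
The stretches differed at 31 of 120 bases, and the aligned coding sequences were 64.6% identical with no identical run longer than 12 bases. A read of 75 bases, the length sequenced here, could therefore not match both perfectly.

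Totals ran from 15806597 to 32453789 counts per library, and 3 counts corresponded to 0.0908 to 0.203 CPM (counts scaled to a common library total by the trimmed mean of M values). The 3 subsets followed their labels on defining genes: the summed level of the 4 pDC markers Bst2, which encodes CD317 itself, Siglech, Tcf4 and Ccr9 was 8532 to 9773 CPM in pDC, 187 to 208 in cDC1 and 134 to 152 in cDC2. The 5-gene cDC1 list reached 3445 to 3816 CPM in cDC1, 189 to 235 in cDC2 and 572 to 698 in pDC, and the 4-gene cDC2 list reached 1388 to 1480 CPM in cDC2, 67.5 to 114 in cDC1 and 571 to 604 in pDC. These lists also hold genes of the sort gates, Cd8a for cDC1 and Itgam (CD11b) for cDC2, so the check is not independent of the sort. Marker lists of other cells were not at 0: the 4-gene plasma cell list reached 598 to 876 CPM in pDC against at most 142 elsewhere, mostly from Jchain and Xbp1, and the 5-gene macrophage or monocyte list reached 398 to 520 CPM in cDC2, mostly from Adgre1. Their part in the members' differences was not tested. In bulk libraries, fewer cells of a type and less RNA per cell cannot be told apart.

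Cox6a2 was high in pDC and close to absent in both conventional subsets. Its level was 439, 412 and 409 CPM in the 3 pDC libraries, 1.24, 0.959 and 0.542 CPM in cDC1, and 1.94, 0.840 and 1.17 CPM in cDC2. The subsets did not overlap: the pDC libraries held 6944 to 14493 reads of the gene and the 6 conventional libraries 8 to 61. The log2 fold change was 8.77 ± 0.33 (SE) for pDC against cDC1 (adjusted p = 6.2e-08, edgeR) and 8.29 ± 0.32 for pDC against cDC2 (adjusted p = 9.8e-08). Leaving out any one of the 9 libraries kept both calls, with log2 fold changes between 8.03 and 9.05. The small levels in cDC2 and cDC1 were not called different (0.48 ± 0.33, adjusted p = 0.36). The gene lies on chromosome 7 (GRCm38, 128205435 to 128206387, minus strand, 3 exons), and 10.3% of its exonic bases overlap Itgad on the opposite strand. Itgad itself stood at 18.3 ± 3.04 CPM in pDC, 10.1 ± 2.92 in cDC2 and 6.17 ± 2.56 in cDC1 (SD, n = 3), far under the Cox6a2 level in pDC.

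Cox6a1 did not switch off where Cox6a2 was on. It was read at 170, 163 and 214 CPM in cDC1, 168, 140 and 152 in cDC2 and 144, 133 and 151 in pDC. The pDC libraries were below all cDC1 libraries and mixed with those of cDC2. The difference of pDC from cDC1 was -0.35 ± 0.13 (adjusted p = 0.043), a call that was lost without cDC1 replicate 1 or 3, cDC2 replicate 1 or pDC replicate 1 or 2 (highest adjusted p = 0.10). Per kilobase of the principal transcript, Cox6a2 reached 618 ± 24.0 CPM in pDC against 250 ± 16.3 for Cox6a1, and it ranked 1 of the 93 members there. On the same scale it ranked 85 in cDC1 and 84 in cDC2.

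The other alternative forms of complex IV stayed low in all 3 subsets. The lung and hypoxia form Cox4i2 had a single read in 1 of 9 libraries, and Cox8b, Cox8c and Cox7b2, known from muscle or testis, had none, which allows at most 0.0908 to 0.203 CPM per library. Cox7a1, the muscle form of subunit VIIa, did not exceed 0.474 CPM. Cox6b2, a testis form, was low but not absent: 3.28, 2.35 and 1.75 CPM in cDC2, 1.89, 0.792 and 0.609 in cDC1, and 0.757, 0.355 and 0.884 in pDC. It was lower in pDC than in cDC2 by -1.88 ± 0.58 (adjusted p = 0.023), a call that was lost without cDC2 replicate 1 or 2 or pDC replicate 1 or 2 (highest adjusted p = 0.098). Against this, the common forms ran from 362 to 477 CPM for Cox4i1, 122 to 169.6 CPM for Cox6b1, 83.1 to 112 CPM for Cox7a2 and 188 to 244 CPM for Cox8a over the 9 libraries.

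**Figure D1:**
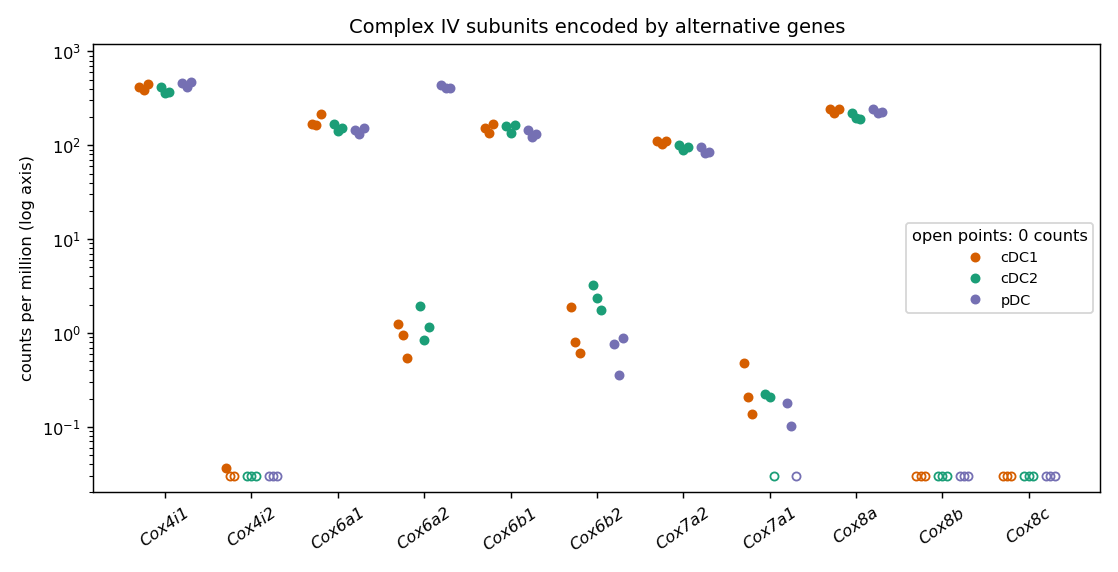
Level of complex IV subunits that are encoded by alternative genes, in CPM on a log axis, with 1 point per library coloured by subset and open points for libraries with 0 counts. Cox6a2 sits between 409 and 439 in the pDC libraries and at 1.94 or less in the other 6, while Cox4i1, Cox6a1, Cox6b1, Cox7a2 and Cox8a lie at similar heights in all 3 subsets.

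Across all members the differences were small. In pDC against cDC1, 7 of 86 members were higher and 25 lower at an adjusted p under 0.05, while 24.3% of all genes were higher and 24.4% lower. The members' median log2 fold change was -0.24 with quartiles of -0.41 and 0.05, where all genes had a median of 0.02 and quartiles of -0.61 and 0.66. With the replicate number as a block, 10 members (11.6%) were higher and 38 (44.2%) lower, against 29.2% and 29.4% of all genes. In pDC against cDC2, 10 members were higher and 7 lower, against 22.5% and 23.3% of all genes, and the median was -0.00. With the block 17 were higher and 17 lower (19.8% each), against 27.1% and 28.4% of all genes. In cDC2 against cDC1, 2 members were higher and 13 lower, against 12.7% and 11.7% of all genes, with a median of -0.18. With the block 4 (4.65%) were higher and 26 (30.2%) lower, against 18.5% and 17.1% of all genes. Under a scaling by library size alone the median of all genes moved to 0.11, -0.03 and 0.14 in the 3 comparisons, and the members' medians to -0.15, -0.02 and -0.07.

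The share of members that were higher in pDC than in cDC1, 8.14%, was well under that of all genes, while the share that were lower, 29.1%, was near it without the block and above it with the block. An F test over the 3 subsets was passed by 36 members (41.9%), where 56.0% of all genes passed. With the block 55 members passed (64.0%), where 66.7% of all genes did. In pDC against cDC1, 3 members reached a log2 fold change of 1 or more in size: Cox6a2, Atp5sl and Ndufaf6. Of the 64 called differences, 35 kept their call whichever of the 9 libraries was left out, and these also kept it in every other fit that tested them at the same threshold. At an adjusted p under 0.01, 32 of the 35 remained.

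Summed over all members, the level was 10931 ± 1002 CPM in cDC1, with 9305 ± 546 in cDC2 and 9549 ± 619 in pDC (SD, n = 3). The libraries of cDC1 ran from 10129 to 12054 CPM and lay above all those of cDC2 and pDC, whose highest values were 9721 and 9954 CPM. As shares of all counts, without the scaling between libraries, the subsets overlapped: cDC1 replicate 2, at 0.983%, was below cDC2 replicate 1 at 0.993% and pDC replicate 1 at 1.01%. Single parts weigh on these sums. Cox6a2, close to absent outside pDC, gave up to 439 CPM of a pDC sum. The ATP synthase subunits summed to 4226 ± 478 CPM in cDC1, with 3331 ± 237 in cDC2 and 3222 ± 273 in pDC.

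**Figure D2:**
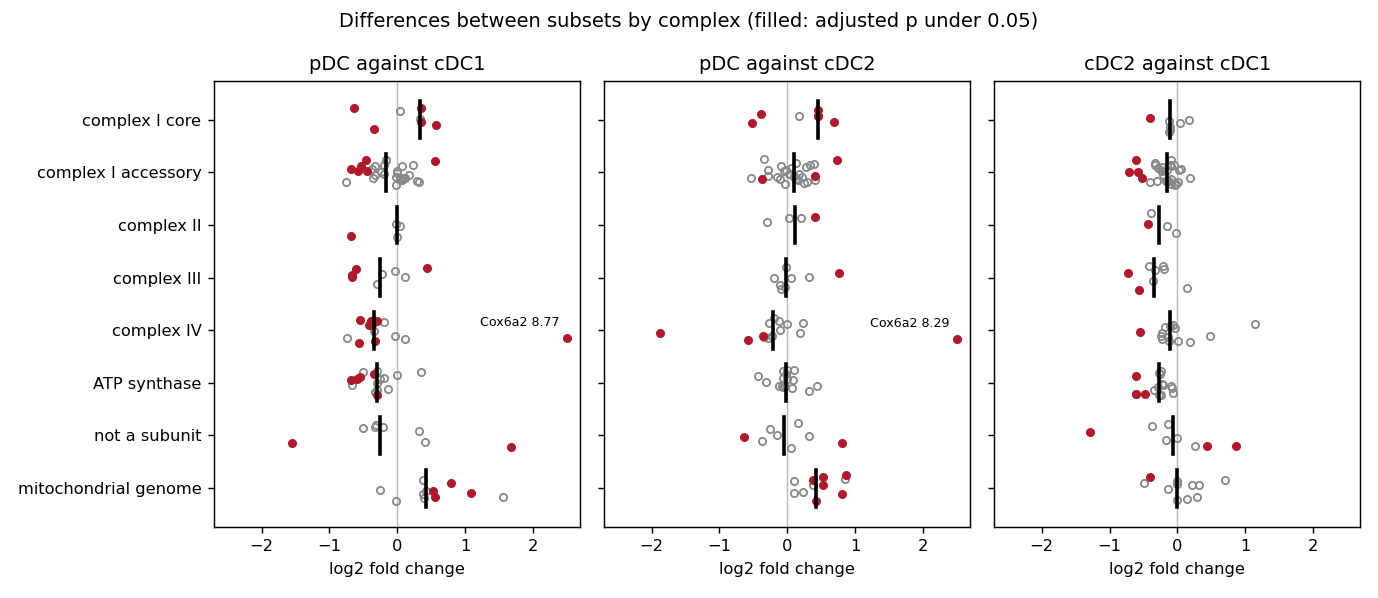
Log2 fold change of every tested member in the 3 comparisons, grouped by complex, with the genes of the mitochondrial genome in the bottom row. Filled points had an adjusted p under 0.05, black bars mark the median of each row, and the axis stops short of Cox6a2, whose value is printed. Medians of complex IV and the ATP synthase lie left of 0 in pDC against cDC1 (-0.35 and -0.30), and that of the complex I core lies right of it (0.34).

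Complex I, the entry point of electrons from NADH, had members called in both directions among its core and its accessory subunits. Its 7 nuclear core subunits carry the flavin and the iron-sulfur clusters, and 3 of them were higher and 2 lower in pDC than in cDC1, with a median of 0.34. Against cDC2, 4 were higher and 2 lower, with a median of 0.45. The 29 accessory subunits had 1 higher and 5 lower in pDC against cDC1 (median -0.16) and 2 higher and 1 lower against cDC2 (median 0.10). Of all genes, 24.3% were higher and 24.4% lower in the first comparison and 22.5% and 23.3% in the second, and the difference between core and accessory subunits was not tested.

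The core subunits Ndufs3 and Ndufs7 were higher in pDC than in both conventional subsets. Ndufs3 was read at 33.7, 30.9 and 40.9 CPM in pDC, 23.5, 21.3 and 26.1 in cDC1 and 22.5, 22.1 and 21.3 in cDC2. No pDC library overlapped another subset, and the log2 fold changes were 0.58 ± 0.14 (adjusted p = 0.0069) and 0.68 ± 0.14 (adjusted p = 0.0029), both kept without any one library. Ndufs7, which binds the last iron-sulfur cluster before ubiquinone, was at 55.1, 55.3 and 52.4 CPM in pDC, 41.9, 41.4 and 44.2 in cDC1 and 41.9, 40.4 and 36.1 in cDC2. Its difference from cDC2 was 0.46 ± 0.10 (adjusted p = 0.0044), and that from cDC1 was 0.35 ± 0.10 (adjusted p = 0.016). The call against cDC1 was lost without cDC1 replicate 1 or 2 or pDC replicate 1 or 2 (highest adjusted p = 0.066).

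The accessory subunit Ndufv3 followed the same pattern. It stood at 63.0, 65.3 and 46.7 CPM in pDC against 39.4, 40.0 and 39.1 in cDC1 and 39.6, 36.0 and 29.5 in cDC2, again with no overlap. The log2 fold changes were 0.56 ± 0.15 against cDC1 (adjusted p = 0.013, or 0.064 without pDC replicate 2) and 0.74 ± 0.15 against cDC2 (adjusted p = 0.0033). Ndufv1, the subunit that binds NADH and the flavin, was at 93.9, 88.9 and 111 CPM in pDC and 73.9, 68.8 and 71.6 in cDC2. That difference of 0.46 ± 0.13 had an adjusted p of 0.017, or 0.055 without cDC2 replicate 2, and against cDC1 the adjusted p was 0.057 (0.0091 with the block).

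The core subunits Ndufv2 and Ndufs1 went the opposite way in pDC, so the core did not move as one. Ndufv2, the partner of Ndufv1 in the NADH-oxidising part, was at 72.9, 68.6 and 75.3 CPM in pDC, 99.6, 96.9 and 142 in cDC1 and 99.9, 89.1 and 122 in cDC2. Every pDC library was below every other library, by -0.64 ± 0.17 against cDC1 (adjusted p = 0.011) and -0.52 ± 0.17 against cDC2 (adjusted p = 0.030). The second call was lost without cDC2 replicate 1 or 3 or pDC replicate 1 or 2 (highest adjusted p = 0.098). Ndufs1, the largest core subunit, was at 63.5, 61.1 and 61.0 CPM in pDC against 69.3 to 83.7 in cDC1 and 76.5 to 84.9 in cDC2, a difference of -0.34 ± 0.11 from cDC1 (adjusted p = 0.023) and -0.38 ± 0.10 from cDC2 (adjusted p = 0.013). The former was lost without cDC1 replicate 1 or 2 or pDC replicate 1 (highest adjusted p = 0.091). Ndufs8 stood out in cDC2 instead, at 74.7, 68.5 and 70.6 CPM against 85.9 to 108 in cDC1 and 89.2 to 104 in pDC (pDC against cDC2 0.45 ± 0.12, adjusted p = 0.0097).

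Among the accessory subunits, Ndufs4 and Ndufb11 were highest in cDC1. Ndufs4, a subunit whose loss is a known cause of complex I deficiency, was at 95.0, 92.7 and 99.4 CPM in cDC1, 68.8, 64.3 and 67.6 in cDC2 and 62.9, 60.0 and 56.8 in pDC. The cDC1 libraries lay above all others, and the difference was -0.68 ± 0.09 for pDC (adjusted p = 0.00021) and -0.52 ± 0.09 for cDC2 (adjusted p = 0.0026). Ndufb11 was at 174, 177 and 227 CPM in cDC1, 124, 115 and 113 in cDC2 and 145, 130 and 144 in pDC. It was lower by -0.72 ± 0.12 in cDC2 (adjusted p = 0.0019) and -0.47 ± 0.12 in pDC (adjusted p = 0.0093). Ndufb8 was lower in pDC than in cDC1 by -0.58 ± 0.14 (adjusted p = 0.0068). These calls stood without any one library.

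**Figure D3:**
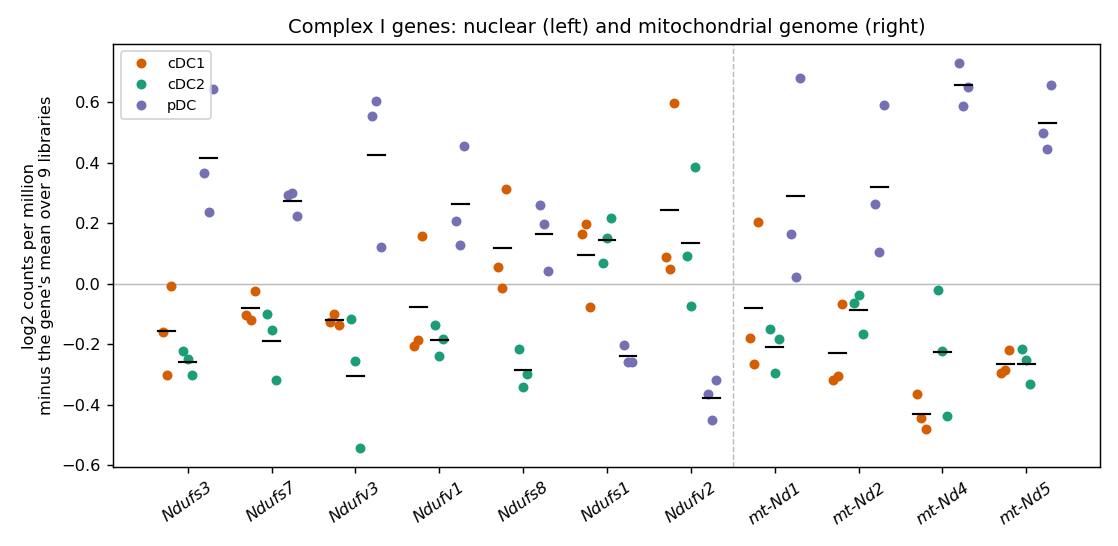
Complex I genes by library, as log2 CPM minus each gene's mean over the 9 libraries, with 1 point per library and a black bar at the mean of each subset. The pDC points lie highest for Ndufs3, Ndufs7, Ndufv3, mt-Nd4 and mt-Nd5 and lowest for Ndufs1 and Ndufv2, and cDC2 lies lowest for Ndufs8.

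Complex II, which oxidises succinate and feeds its electrons to ubiquinone, has 4 subunits, and they did not move together. The flavin-binding subunit Sdha was at 312 ± 3.91 CPM in cDC1, with 308 ± 16.4 in cDC2 and 312 ± 29.3 in pDC, with log2 differences of 0.02 or less in size and an SE of 0.10. The membrane anchor Sdhd was read at 175, 178 and 217 CPM in cDC1, 140, 132 and 164 in cDC2 and 129, 100 and 125 in pDC. Its difference between pDC and cDC1 was -0.69 ± 0.14 (adjusted p = 0.0025), the libraries did not overlap, and the call stood without any one library. The iron-sulfur subunit Sdhb was lowest in cDC2, at 106, 100 and 102 CPM against 125 to 164 in cDC1 and 133 to 142 in pDC. The difference of cDC2 from cDC1 was -0.43 ± 0.12 (adjusted p = 0.027, at most 0.076 without cDC2 replicate 1, 2 or 3), and that of pDC from cDC2 was 0.41 ± 0.12 (adjusted p = 0.017, at most 0.056 without cDC2 replicate 2 or pDC replicate 1).

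Complex III passes electrons from ubiquinol to cytochrome c. Of its 8 nuclear subunits, 1 was higher and 3 were lower in pDC than in cDC1 (median -0.26), 1 was higher and 0 lower against cDC2 (median -0.02), and 2 were lower in cDC2 than in cDC1 (median -0.34). The shares of all genes were 24.3% higher and 24.4% lower in the first comparison, and 22.5% and 23.3% in the second. In the third, 11.7% of all genes were lower. Uqcrfs1, the Rieske iron-sulfur protein, was at 191, 187 and 252 CPM in cDC1, 146, 127 and 155 in cDC2 and 134, 121 and 143 in pDC. The cDC1 libraries were above all others, with differences of -0.67 ± 0.14 for pDC (adjusted p = 0.0030) and -0.56 ± 0.14 for cDC2 (adjusted p = 0.015, or 0.052 without cDC2 replicate 2). Uqcrc2, 1 of the core proteins, was lower in pDC than in cDC1 by -0.61 ± 0.14 (adjusted p = 0.0045), whereas its partner Uqcrc1 was at 203 ± 17.0 CPM in cDC1, with 177 ± 7.27 in cDC2 and 166 ± 21.1 in pDC (adjusted p = 0.059 for pDC against cDC1, or 0.0076 with the block).

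Uqcrb and Uqcr11, both small subunits of complex III, were called in opposite directions in pDC against cDC1. Uqcrb was read at 51.8, 47.2 and 55.7 CPM in cDC1, 32.1, 30.4 and 30.6 in cDC2 and 32.4, 27.4 and 37.3 in pDC, lower by -0.73 ± 0.13 in cDC2 (adjusted p = 0.0029) and -0.67 ± 0.13 in pDC (adjusted p = 0.0022). Uqcr11 was read at 43.7, 43.7 and 62.2 CPM in pDC, 36.7, 35.3 and 38.7 in cDC1 and 30.3, 26.9 and 31.1 in cDC2. Its difference between pDC and cDC2 was 0.76 ± 0.15 (adjusted p = 0.0025), kept without any one library. That between pDC and cDC1 was 0.43 ± 0.15 (adjusted p = 0.039), and it was lost without pDC replicate 3 or any single library of cDC1 or cDC2 (highest adjusted p = 0.11).

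Complex IV, which hands the electrons to oxygen, had 14 tested nuclear subunits. In pDC against cDC1, Cox6a2 was higher and 8 others were lower, with a median of -0.35. Against cDC2, Cox6a2 was higher and 3 were lower (median -0.21), and between cDC2 and cDC1 only Cox7b was called (median -0.11). Of all genes, 24.3% were higher and 24.4% lower in pDC against cDC1, and 22.5% and 23.3% in pDC against cDC2. In cDC2 against cDC1 the shares were 12.7% and 11.7%. Cox7a2l, the supercomplex factor placed with this complex, was read at 314, 305 and 341 CPM in pDC, 429, 411 and 412 in cDC1 and 501, 454 and 476 in cDC2. Supercomplexes themselves were not measured. The 3 subsets did not overlap, and pDC was lower by -0.38 ± 0.09 against cDC1 (adjusted p = 0.0043) and -0.58 ± 0.09 against cDC2 (adjusted p = 0.00038). The difference between cDC2 and cDC1 had an adjusted p of 0.14, or 0.037 with the block. A processed pseudogene of Cox7a2l, Gm6969, was itself counted at 45.8 ± 1.84, 51.7 ± 3.76 and 32.8 ± 3.50 CPM in cDC1, cDC2 and pDC.

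Cox7b and Cox5a differed in where they were lower. Cox7b was at 174, 160 and 187 CPM in cDC1, 125, 110 and 120 in cDC2 and 124, 104 and 126 in pDC, so the cDC1 libraries were above the rest. The difference was -0.55 ± 0.11 in both comparisons with cDC1 (adjusted p = 0.0024 for pDC and 0.0051 for cDC2). Cox5a was at 126, 113 and 146 CPM in pDC, 169, 153 and 182 in cDC1 and 179, 145 and 168 in cDC2, where pDC overlapped cDC2 by 1 library. Its differences of -0.39 ± 0.13 from cDC1 (adjusted p = 0.029) and -0.35 ± 0.13 from cDC2 (adjusted p = 0.047) rested on single libraries: the first was lost without cDC1 replicate 1 or 3 or pDC replicate 1 or 2 (highest adjusted p = 0.083), and the second without any of 6 libraries, namely cDC1 replicates 1 and 2, cDC2 replicates 1 and 3 and pDC replicates 1 and 2 (highest adjusted p = 0.16). Cox4i1, the main regulatory subunit, stood at 417 ± 29.4 CPM in cDC1, with 384 ± 29.8 in cDC2 and 453 ± 27.6 in pDC, with no call (adjusted p = 0.076 for pDC against cDC2, or 0.014 with the block).

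The ATP synthase was the complex with no member called higher in any comparison. Of 16 tested subunits, 5 were lower in pDC than in cDC1 (median -0.30; 10 with the block), 3 were lower in cDC2 than in cDC1 (median -0.27; 8 with the block), and 0 of 16 were called between pDC and cDC2 in edgeR (median -0.02; 1 lower with the block). Of all genes, 24.3% were higher and 24.4% lower in pDC than in cDC1, 12.7% and 11.7% in cDC2 than in cDC1, and 22.5% and 23.3% in pDC than in cDC2. With the block, 29.4% were lower in pDC than in cDC1 and 17.1% in cDC2 than in cDC1. All 16 had a negative log2 fold change in cDC2 against cDC1, and 15 of 16 in pDC against cDC1, where 6603 and 6804 of all 13819 genes did. By library size alone the medians against cDC1 were -0.21 and -0.15.

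Atp5b, the catalytic beta subunit, was the member with the most reads. It was read at 1230, 1223 and 1495 CPM in cDC1, 933, 872 and 1027 in cDC2 and 934, 798 and 961 in pDC, and the cDC1 libraries were above all others. The difference was -0.55 ± 0.12 for pDC (adjusted p = 0.0031) and -0.48 ± 0.12 for cDC2 (adjusted p = 0.014, or 0.051 without cDC2 replicate 1). Its partner Atp5a1, the alpha subunit, was at 1040 ± 121 CPM in cDC1, with 882 ± 68.2 in cDC2 and 875 ± 81.6 in pDC, with adjusted p-values of 0.10 and 0.18 for the same comparisons (0.013 and 0.026 with the block).

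The c ring that rotates in the membrane is built from one mature protein encoded by 3 genes, Atp5g1, Atp5g2 and Atp5g3. Atp5g3 had the most reads, at 256, 243 and 290 CPM in cDC1, 183, 160 and 173 in cDC2 and 171, 134 and 189 in pDC. It was lower by -0.67 ± 0.14 in pDC (adjusted p = 0.0024) and -0.61 ± 0.14 in cDC2 (adjusted p = 0.0085), with no overlap with cDC1 and with both calls kept without any one library. Atp5g1 was at 22.5 ± 4.23 CPM in cDC1, with 14.7 ± 2.64 in cDC2 and 15.7 ± 2.16 in pDC. Its call in cDC2 against cDC1 (-0.61 ± 0.20, adjusted p = 0.047) was lost without any of 7 libraries, namely each cDC1 library, cDC2 replicates 2 and 3 and pDC replicates 1 and 2 (highest adjusted p = 0.14). Gm10039, a processed pseudogene that shares sequence with Atp5g1, was itself counted at 70.0 ± 18.4, 47.9 ± 7.60 and 49.0 ± 3.82 CPM in cDC1, cDC2 and pDC. Whether those reads came from the copy or from Atp5g1 cannot be told apart in the counts. Atp5g2 was near 1 CPM in all subsets and is taken up with the pseudogenes.

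The name rule also brought in 3 assembly genes that were called in 2 or more comparisons. Atp5sl, now named Dmac2 and needed to build the distal membrane arm of complex I, rose from cDC1 through cDC2 to pDC: 16.5, 17.1 and 17.4 CPM, then 30.0, 30.4 and 32.6, then 53.1, 57.2 and 52.3. No 2 subsets overlapped. The log2 fold changes were 1.67 ± 0.10 for pDC against cDC1 (adjusted p = 1.1e-06), 0.80 ± 0.10 for pDC against cDC2 (adjusted p = 0.00013) and 0.87 ± 0.10 for cDC2 against cDC1 (adjusted p = 0.00023), and all 3 calls were kept without any one library. It was the 1 member called in all 3 comparisons in this order, which 2.83% of all tested genes were.

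Ndufaf6, another complex I assembly factor, was lower outside cDC1, at 13.9, 12.8 and 10.8 CPM in cDC1 against 5.23, 5.11 and 4.94 in cDC2 and 4.06, 3.80 and 4.95 in pDC. The differences were -1.55 ± 0.20 (adjusted p = 0.00014) for pDC and -1.29 ± 0.20 (adjusted p = 0.0011) for cDC2. Ndufaf7, a methyltransferase needed for complex I assembly, was highest in cDC2, at 30.6, 29.5 and 30.8 CPM against 22.5, 22.3 and 22.4 in cDC1 and 21.7, 17.9 and 18.5 in pDC. It was lower in pDC than in cDC2 by -0.64 ± 0.12 (adjusted p = 0.0016). It was higher in cDC2 than in cDC1 by 0.43 ± 0.12 (adjusted p = 0.025), and this call was lost without any single library of cDC1 or cDC2 (highest adjusted p = 0.088).

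**Figure D4:**
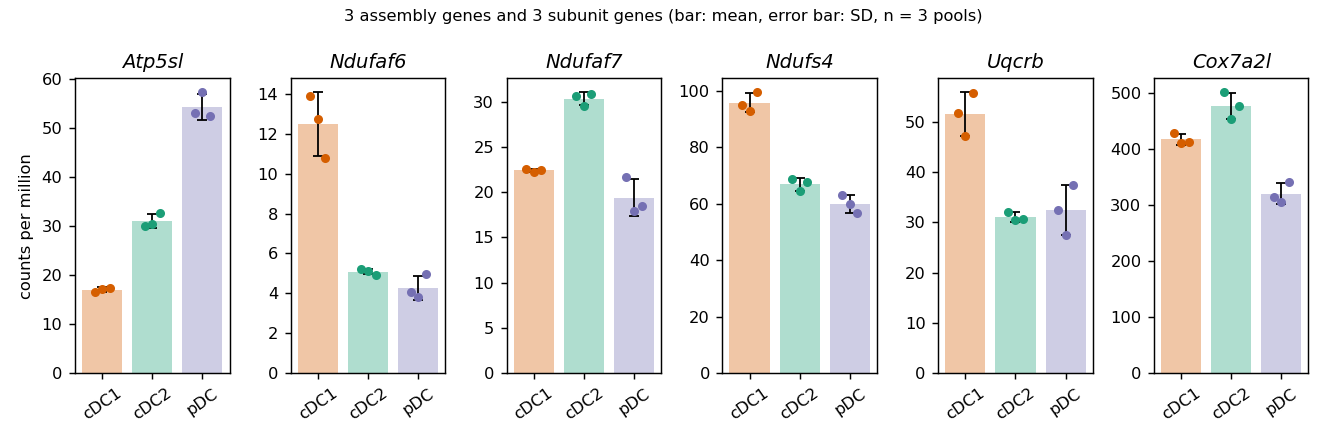
CPM of Atp5sl, Ndufaf6, Ndufaf7, Ndufs4, Uqcrb and Cox7a2l in the 3 subsets, with bars at the mean, error bars of 1 SD (n = 3 pools) and 1 point per library. Atp5sl climbs from 17.0 through 31.0 to 54.2, Ndufaf6, Ndufs4 and Uqcrb are highest in cDC1, Ndufaf7 is highest in cDC2, and Cox7a2l is lowest in pDC.

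The subunits encoded by the mitochondrial genome, which the name rule does not reach, had members called higher in pDC and none called lower in edgeR. Of 13 genes, 11 were tested. In pDC against cDC1, 4 were higher and 0 lower (6 and 0 with the block), where 24.3% of all genes were higher. Against cDC2, 6 were higher and 0 lower (7 and 0 with the block), where 22.5% of all genes were higher. The median log2 fold change was 0.42 in both comparisons. Between cDC2 and cDC1, 1 was lower, where 11.7% of all genes were, and the median was 0.00. The complex I gene mt-Nd5 was read at 3276, 3158 and 3661 CPM in pDC, 1894, 1908 and 1997 in cDC1 and 1998, 1950 and 1846 in cDC2, a difference of 0.80 ± 0.08 from either (adjusted p = 2.9e-05 and 3.3e-05). The complex III gene mt-Cytb was read at 6415, 5658 and 5374 CPM in pDC, 4247, 4080 and 3804 in cDC1 and 4697, 4103 and 3273 in cDC2, higher in pDC by 0.52 ± 0.13 and 0.53 ± 0.13 (adjusted p = 0.0076 and 0.0075). In both genes no pDC library overlapped another subset.

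The ratio of summed CPM of mitochondrially encoded subunits to nuclear subunits was 3.10, 3.17 and 3.46 in the pDC libraries, 2.32, 2.35 and 2.24 in cDC1 and 2.42, 2.47 and 2.16 in cDC2. All pDC libraries were above all others, and the mean was 3.24 ± 0.189 in pDC, 2.31 ± 0.0579 in cDC1 and 2.35 ± 0.165 in cDC2 (SD, n = 3). An exact two-sided permutation test of 3 libraries against 3 gave p = 0.1 for pDC against each conventional subset, which is the smallest value that design allows, and p = 0.7 for cDC2 against cDC1. The largest part of the mitochondrially encoded sum was mt-Co1, at a mean of 12666 CPM without the scaling between libraries, so the ratio leans on this gene. Of the genes summed, mt-Cytb and mt-Nd1 shared no 75-base window with another annotated gene, while mt-Nd4 shared 61.5% and mt-Co1 39.8%. A further 5 genes shared nearly all of theirs: mt-Co3 (99.9%), mt-Co2 (99.5%), mt-Atp6 (99.5%), mt-Nd4l (98.7%) and mt-Nd3 (97.8%). They were counted at a mean of 1.36 CPM or less, and 4 of them are among the 11 tested and the medians given, without being called in any comparison, so the levels of those genes cannot be read from their counts. The gene mt-Atp8 shared no window but was also low, at a mean of 0.0987 CPM. The libraries were made from polyadenylated RNA, and how completely that selection retains mitochondrial transcripts was not tested.

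Other parts of the pathway, taken as lists, gave mixed counts, to be read against 24.3% higher and 24.4% lower among all genes in pDC against cDC1 and 22.5% and 23.3% in pDC against cDC2. Of 5 carriers and synthase components outside the name rule, 3 were lower in pDC than in cDC1 and 0 higher. Among them, Atpif1, which blocks the ATP synthase from running backwards, was read at 317, 309 and 259 CPM in cDC1, 117, 102 and 93.9 in cDC2 and 68.9, 56.3 and 61.7 in pDC. The 3 subsets did not overlap, and all differences were called (pDC against cDC1 -2.24 ± 0.13, adjusted p = 7.7e-07; cDC2 against cDC1 -1.50 ± 0.13, adjusted p = 3.2e-05; pDC against cDC2 -0.74 ± 0.13, adjusted p = 0.00098). Usmg5, a small membrane subunit of the synthase, was at 21.3 ± 1.53 CPM in cDC1, with 13.3 ± 1.06 in cDC2 and 9.78 ± 2.85 in pDC (pDC against cDC1 -1.11 ± 0.22, adjusted p = 0.0020).

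Of 40 tested assembly factors with other names, 5 were higher and 5 lower in pDC than in cDC1, and 7 higher and 3 lower against cDC2. For complex III, Lyrm7, a chaperone of the Rieske protein, was at 5.65 ± 1.36 CPM in pDC against 0.656 ± 0.158 in cDC1 and 1.16 ± 0.183 in cDC2 (3.11 ± 0.38 and 2.27 ± 0.36, adjusted p = 9.9e-05 and 0.00060). For complex IV, Cmc2 was at 7.60 ± 1.02 CPM in pDC against 22.1 ± 2.08 in cDC1 and 14.5 ± 1.72 in cDC2 (-1.53 ± 0.17 and -0.93 ± 0.17, adjusted p = 5.1e-05 and 0.0014). For complex II, Sdhaf1 was highest in cDC2, at 43.9 ± 4.88 CPM against 24.2 ± 4.97 in cDC1 and 27.7 ± 1.91 in pDC.

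Of 17 regulators of mitochondrial gene expression, 2 were higher and 1 lower in pDC than in cDC1. The coactivator gene Ppargc1b was at 2.78, 3.65 and 3.00 CPM in pDC and at most 0.510 CPM in the conventional libraries, higher by 3.47 ± 0.89 and 3.31 ± 0.87 (adjusted p = 0.0092 and 0.011). The transcription factors Nrf1, Gabpa and Yy1 were not called in these comparisons (adjusted p of 0.055 or more). Ppargc1b did not have the largest log2 fold change of the list in pDC against cDC1, which was 3.67. In cDC2 against cDC1, 1 regulator was higher and 0 lower, where 12.7% and 11.7% of all genes were. The largest log2 fold change there was 4.31. Of 16 other mitochondrial proteins, 8 were lower in pDC than in cDC1 and 0 higher (median -0.52), which became 11 lower and 1 higher with the block, where 24.4% of all genes were lower and 24.3% higher, or 29.4% and 29.2% with the block. They included citrate synthase (Cs), at 533 CPM in cDC1, with 434 in cDC2 and 267 in pDC, and the phosphate carrier Slc25a3, at 499.6 CPM, 382 and 295.

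In the RefSeq promoters of GRCm38.p6, which were matched for 76 members (250 bases before to 50 after the start), the NRF1 letters GCGCATGC was found on either strand in 12 members (15.8%), against 824 of 27025 genes with a promoter (3.05%). The YY1 letters AAGATGGCG were in 8 members (10.5%; 1.64% of all genes), and the ETS letters CCGGAAGT in 5 (6.58%; 4.31% of all genes). Called members that held the NRF1 letters went in different directions: Uqcr11 and Sdhb were higher in pDC than in cDC2, Ndufa6 and Cox6a1 were lower in pDC than in cDC1, and Ndufa8 was lower in pDC than in cDC2. Others that held them, among them Ndufa11, Uqcrc1, Atp5g2, Atp5k and Atp5l, were not called in any comparison. The YY1 letters were in the promoters of Atp5sl and Ndufs7 as well as that of Ndufs4. They were also in those of Ndufa9, Ndufc1, Ndufs6 and Atp5j, which were not called in any comparison. No promoter of Cox6a2 was in the table.

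Several small subunits had far fewer counts than their partners in the same complex. The transcripts of all members were therefore compared with those of other genes. In all, 27 of 93 members shared at least 1 window of 75 bases with another annotated gene that does not overlap them, 16 shared more than 10% of their windows and 3 more than 50%: Atp5g2 (86.9%), Atp5l (63.4%) and Cox7c (50.4%). In these 3 genes and in Ndufb4, every window of the coding sequence was identical in another gene. The first 75 coding bases of each are shown, since a read holding them fits the other genes just as well.
Atp5l: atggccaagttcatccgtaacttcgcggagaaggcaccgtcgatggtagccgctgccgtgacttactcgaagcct
Cox7c: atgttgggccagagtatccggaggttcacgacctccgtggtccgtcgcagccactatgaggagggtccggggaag
Ndufb4: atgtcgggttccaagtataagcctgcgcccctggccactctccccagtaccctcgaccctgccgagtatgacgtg
Atp5g2: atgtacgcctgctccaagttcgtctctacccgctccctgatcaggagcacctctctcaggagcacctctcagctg
The Atp5l bases are also in Atp5l2-ps and Gm10221, those of Cox7c in Gm12338, those of Ndufb4 in Ndufb4c, and those of Atp5g2 in Gm10175 and Gm10231.

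These genes were counted at a few CPM: Atp5l, the g subunit of the ATP synthase, at 3.94 ± 1.10 CPM in cDC1, with 3.71 ± 1.13 in cDC2 and 5.05 ± 0.547 in pDC, Cox7c at 6.36 ± 0.843, 6.06 ± 1.90 and 5.01 ± 0.0118, Ndufb4 at 2.01 ± 0.527, 1.96 ± 0.910 and 2.01 ± 0.453, and Atp5g2 at 0.960 ± 0.0909, 0.793 ± 0.695 and 0.587 ± 0.509. Of the 83 nuclear subunit genes, 67 had a mean over the subsets between 20 and 1000 CPM. Gapdh, a glycolytic gene with many processed pseudogenes, was at 8.03 ± 0.912, 10.1 ± 3.06 and 11.8 ± 5.56 CPM, and its windows were not compared. Atp5s, a member without a shared window, was also low, at 1.91 to 5.21 CPM over the 9 libraries. The cause of the low counts was not tested. How reads that fit more than 1 place were treated is not given in the sources used here.

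For 2 of the 4 a pseudogene sharing the coding sequence had more counts than the member. Gm10221, an intronless copy of Atp5l, was counted at 85.8, 77.4 and 99.8 CPM in cDC1, 86.2, 72.0 and 101 in cDC2 and 54.7, 52.4 and 76.7 in pDC, above Atp5l in every library. Gm12338, a copy of Cox7c, was at 82.2, 73.6 and 66.6 CPM in cDC1, 63.2, 53.6 and 56.8 in cDC2 and 51.3, 55.7 and 37.8 in pDC. Atp5h, the d subunit, was at 52.5 ± 5.55 CPM in cDC1 and its copy Gm10250 at 161 ± 7.07 CPM. Further members were below a copy when averaged over the 9 libraries without the scaling between libraries. Ndufs5 was at 9.82 CPM against 22.5 for BC002163, and Ndufab1 at 8.21 against 17.8 for Gm4459. Ndufa12 was at 16.5 CPM against 19.4 for Gm15920, and Atp5g1 at 17.5 against 55.2 for Gm10039. For Ndufb4 the copy Ndufb4c was lower, at 0.720 CPM on the same unscaled average against 2.00 for Ndufb4. For Atp5g2 the copies Gm10175 and Gm10231 were at 0.657 CPM or less on average, and the level of Atp5g2 in these cells cannot be read from its count.

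Adding the counts of the processed pseudogenes to their parents gave sums set mostly by the copies for Atp5l and Cox7c. Atp5l had a log2 fold change of 0.35 ± 0.32 in pDC against cDC1 (adjusted p = 0.41), and its sum had -0.47 (adjusted p = 0.046). Gm10221 alone had -0.52 ± 0.18 (adjusted p = 0.040). Cox7c had -0.34 ± 0.27 (adjusted p = 0.33), and its sum had -0.60 (adjusted p = 0.0072). Gm12338 alone had -0.62 ± 0.16 (adjusted p = 0.0083). Over all members the count lower in pDC than in cDC1 went from 25 to 29, and the other counts stayed at 7, 10, 7, 2 and 13. Copies also shared windows with members that were called. Among them were Gm16089 and Gm2962 for Uqcrb, which shares 29.1% of its windows, and Gm12251 for Ndufs3, which shares 27.1%. Averaged over the 9 libraries without the scaling between libraries, Uqcrb was at 38.0 CPM. Its 3 copies, Gm5457 included, summed to 45.5 CPM. Gm2962 was lower in pDC than in cDC1 by -0.94 ± 0.18 (adjusted p = 0.0016), and Gm12251 was higher in pDC than in cDC1 by 0.56 ± 0.14 (adjusted p = 0.0077), the same directions as their parents. For all of these copies, whether the reads came from the copy or the parent cannot be told apart in the counts.

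**Figure D5:**
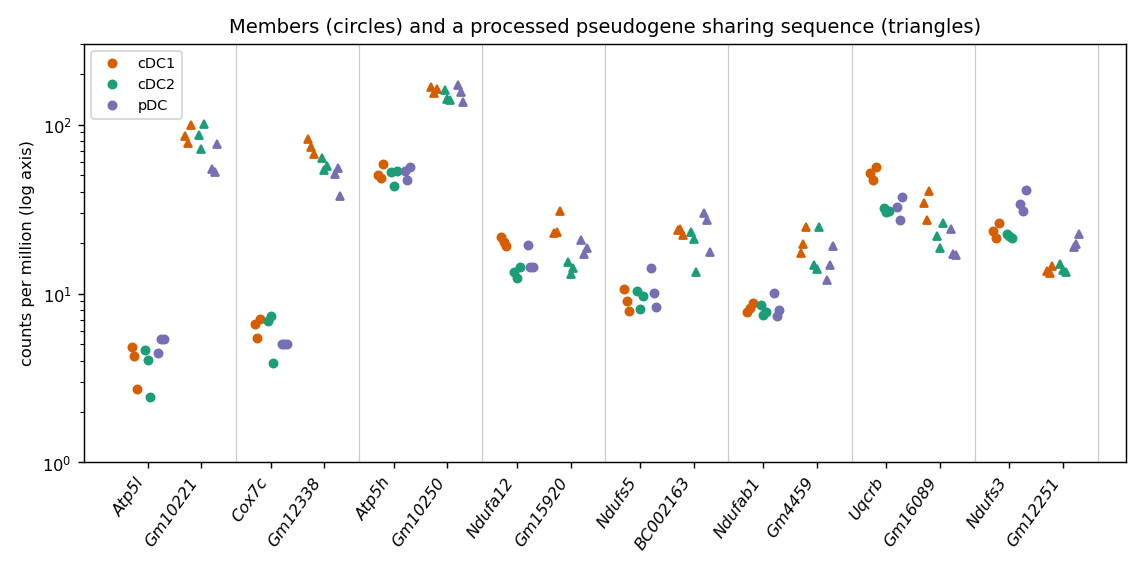
CPM on a log axis of 8 members (circles) and of 1 processed pseudogene that shares sequence with each (triangles), with 1 point per library coloured by subset. Gm10221, Gm12338 and Gm10250 lie above their parents Atp5l, Cox7c and Atp5h in all 9 libraries, while Uqcrb and Ndufs3 lie above the copy shown in all 9. Uqcrb has further copies that are not plotted.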

How the data were processed

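Total RNA from sorted splenic DC subsets was made into stranded, poly(A)-selected libraries and sequenced as single reads of 75 bases. The authors deposited raw counts per gene. The submitters' processing notes name STAR, SAMtools, MultiQC, featureCounts and mm10. The annotation release, strand setting and treatment of multiply mapping reads are not given in the sources used here. All 9 libraries entered 1 edgeR 4.0.16 quasi-likelihood fit (R 4.3.3, TMM scaling, filterByExpr with a minimum count of 10, subset as the factor), with Benjamini-Hochberg adjustment over all 13819 genes tested and a threshold of 0.05. Fold changes are log2 with their SE, and CPM uses TMM-scaled totals. The replicates were separate pools of mice and exceeded counting error within every subset.

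Same-numbered libraries carry the same numeric code in the labels, which do not say what it stands for. The numbers were taken to pair the samples because the deviations of same-numbered libraries from the subset means correlated at 0.266 to 0.543 over all genes in the 9 pairs (mean 0.403), and the fit with the replicate number as a block is an alternative. Members, gene lists and tests were chosen with earlier results of these data known. Members named in full are the 3 largest called rises and falls per comparison with a mean count of at least 100 and the same direction in all 3 pairs, the catalytic subunits, the alternative forms, members sharing over 50% of their windows, and, added after their values were seen, other called members of interest. The values of 1 member are not reported here.

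Windows of 75 bases of each member's principal transcript were compared with all GENCODE M21 transcripts (GRCm38), matched by gene ID for 93 members, and coding sequences were aligned with Biopython 1.88. DESeq2 1.42.0, limma-voom 3.58.1, other scalings and filters, and leaving out libraries were the alternatives. The scripts were tested on simulated data.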

Additional observations from a re-analysis of the deposited data

How the results depend on the processing

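Medians by complex of 0.1 or more in size kept their sign under every alternative run. Smaller ones did not all do so: between pDC and cDC1 those of complexes I and II were 0.07 and 0.09 by library size only, and between pDC and cDC2 those of all members, complex III and the ATP synthase were 0.07, 0.08 and 0.01 without cDC2 replicate 1. Between pDC and cDC1 the members called higher, 7 in the reported fit, were 11 without the libraries numbered 3, 14 without the libraries numbered 3 with the replicate block (an alternative chosen after seeing the data), 3 at an adjusted p under 0.01, and 4 to 9 with 1 library left out in turn. Those called lower, 25, were 38 with the block, 41 without the libraries numbered 3 with the block, 16 by library size only, 13 at 0.01 and 15 to 28 with 1 library left out. Between pDC and cDC2 the 10 higher became 17 with the block and 25 without the libraries numbered 3 with the block (7 to 12 with 1 library left out), and the 7 lower became 17 with the block, 14 without the libraries numbered 3, 20 without the libraries numbered 3 with the block, 2 at 0.01 and 3 to 10 with 1 library left out. Between cDC2 and cDC1 the 2 higher became 4 with the block, with or without the libraries numbered 3, 1 with no filter and 1 at 0.01, and the 13 lower became 26, 29 without the libraries numbered 3 with the block, 6 at 0.01 and 7 to 15 with 1 library left out (1 to 2 for those higher). Members differing among the subsets, 36, were 55, 63 without the libraries numbered 3 with the block, 18 at 0.01 and 25 to 36 with 1 library left out. The block reversed no called direction. By library size only the complex I median between cDC2 and cDC1 moved from -0.12 to -0.0069 (-0.20 to -0.12 with 1 library left out) and that of complex IV from -0.11 to -0.0025, and 63.1% of all calls in that comparison were higher against 52.2%. The complex I median between pDC and cDC1 ran from -0.12 to -0.013 with 1 library left out. With pseudogene counts added, chosen after seeing the data, the sum of Atp5l and its copies in pDC against cDC1 was -0.47, opposite in sign to Atp5l alone. The cause of the other shifts was not tested.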
